A study of Mus musculus with 8 samples.

Results

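The 10 genes considered here, Ccl2, Ccl7, Ccl5, Ccl9, Ccl6, Ccl3, Ccl4, Cxcl2, Cxcl10 and Cxcl16, encode chemokines that myeloid cells make or answer to. A ChIP-seq peak was taken as belonging to a gene when its centre lay in the gene body or within 20 kb of either end. By this rule 58 of the 67673 peaks listed over 4 libraries lay at 8 of the 10 genes, and no peak lay at Ccl2 or Ccl7. The genes are 10 of 21853 protein-coding genes, all positions are in the mouse mm10 (GRCm38) build, and overlapping windows join the genes into 7 stretches of 344 kb in all.

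The cells were X18.1.1, a murine acute myeloid leukaemia line that arose after irradiation. Both groups lack one Pu.1 allele and carry missense and deletion changes in the other. One clone carried an empty retroviral vector (EV, called PU.1-). Another carried PuER, wild-type PU.1 fused to the hormone-binding part of the oestrogen receptor, in the same type of vector (called PU.1+), and both received 100 nM 4-hydroxytamoxifen (OHT) for 2 h. OHT lets the fusion act in the nucleus. Each line was 1 clone, and there was 1 library for each antibody and line, so that no difference between lines has a replicate check and clone and induction cannot be told apart. PU.1 antibody in PU.1- cells reports the mutant protein, and in PU.1+ cells both the mutant protein and PuER. PU.1 gave 5288 peaks in the PU.1- line and 15683 in the PU.1+ line, and CEBPA gave 26119 and 20583. Peaks are intervals of 400 bp with no height, and sequencing depth is unknown from them, so a peak missing from a list may be one that fell below the calling threshold.

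PU.1 is an ETS-family transcription factor of the myeloid and B lineages that binds purine-rich sequence around GGAA, and CEBPA is a basic leucine zipper factor with which it shares many enhancers in monocytes and neutrophils. Chemokines are small secreted proteins that guide leukocytes through G protein-coupled receptors. CC chemokines mostly attract monocytes and T cells, whereas CXC chemokines act on neutrophils (through Cxcr2) or on activated T cells (through Cxcr3 and Cxcr6). Many chemokine genes lie in clusters of recent duplicates, so that one enhancer can lie within reach of several of them.

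The sequence under the peaks is shown first, because ETS and CEBP letters can be read in it directly. Capitals mark exact matches to GGAAGT (ETS) and TTGCNNAA (CEBP) on either strand, so that ACTTCC is an ETS match read from the other strand. Bases come from the RefSeq copy of GRCm38 and are given 5′ to 3′ on the forward strand. The stretches at the Ccl4 intron (chr11:83663726-83663845) and downstream of Ccl3 (chr11:83640356-83640455) were chosen because a peak was listed there in all 4 libraries.
Ccl4 intron: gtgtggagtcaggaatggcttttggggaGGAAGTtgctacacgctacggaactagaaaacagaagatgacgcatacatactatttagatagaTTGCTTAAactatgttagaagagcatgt
Ccl3 downstream: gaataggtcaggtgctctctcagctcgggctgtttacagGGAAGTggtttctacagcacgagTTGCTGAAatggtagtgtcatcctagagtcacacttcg

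Each of these stretches holds 1 ETS and 1 CEBP match. Their centres were 65 bp apart in the Ccl4 intron and 24 bp apart downstream of Ccl3. The ETS match in the Ccl4 intron is preceded by GA, giving the longer PU.1-type sequence GAGGAAGT, of which every instance is also an ETS match.

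The next stretches lie under PU.1 peaks listed only in PU.1+ at positions where CEBPA peaks were listed in both lines, in an intron of Ccl9 (chr11:83577230-83577349) and 12 kb upstream of Ccl6 (chr11:83604769-83604888). Capitals also mark the AP-1 sequence TGANTCA here.
Ccl9 intron: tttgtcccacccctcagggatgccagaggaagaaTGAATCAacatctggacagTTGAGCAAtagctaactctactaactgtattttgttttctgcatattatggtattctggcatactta
Ccl6 upstream 12 kb: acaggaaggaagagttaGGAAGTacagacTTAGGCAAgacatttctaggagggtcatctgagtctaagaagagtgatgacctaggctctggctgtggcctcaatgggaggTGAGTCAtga

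The Ccl6 stretch carries ETS and CEBP matches 13 bp apart, centre to centre. The Ccl9 stretch carries a CEBP and an AP-1 match and no exact GGAAGT. It does hold AGGAA, a shorter ETS sequence with the GGAA core, not put in capitals. The bases before the RefSeq start of Ccl6 (chr11:83593088-83593337) and of Ccl3 (chr11:83649379-83649628) follow, read along each gene on the reverse strand. They were chosen because a PU.1 peak listed only in PU.1+ overlapped part of each of these promoters. Each holds 1 ETS match.
Ccl6 promoter: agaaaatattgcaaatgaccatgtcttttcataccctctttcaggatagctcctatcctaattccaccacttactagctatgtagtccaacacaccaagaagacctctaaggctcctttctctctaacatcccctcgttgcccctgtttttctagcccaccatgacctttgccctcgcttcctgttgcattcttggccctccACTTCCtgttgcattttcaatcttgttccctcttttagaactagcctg
Ccl3 promoter: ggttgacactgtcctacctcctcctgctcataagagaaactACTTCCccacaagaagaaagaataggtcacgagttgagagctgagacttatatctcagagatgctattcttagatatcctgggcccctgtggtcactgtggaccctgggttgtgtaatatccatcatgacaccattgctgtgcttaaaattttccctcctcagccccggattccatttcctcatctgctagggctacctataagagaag

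The remaining stretches show PU.1 peaks away from CEBPA peaks of both lines. They lie upstream of Ccl5 (chr11:83536502-83536741), upstream of Ccl4 (chr11:83658981-83659060), upstream of Cxcl2 (chr5:90898692-90898861) and downstream of Cxcl16 (chr11:70446821-70446920 and chr11:70447567-70447646), again on the forward strand. In the Ccl4 stretch capitals mark the PU.1-IRF composite (GGAA and GAAA with any 2 bases between) and the IRF sequence (GAAA, any 2 bases, GAAA) in place of an ETS match.
Ccl5 upstream 6 kb: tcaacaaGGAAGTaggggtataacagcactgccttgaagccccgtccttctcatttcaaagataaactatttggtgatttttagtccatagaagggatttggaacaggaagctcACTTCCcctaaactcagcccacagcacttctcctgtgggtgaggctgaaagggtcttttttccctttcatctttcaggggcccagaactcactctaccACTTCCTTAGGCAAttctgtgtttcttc
Ccl4 upstream 4 kb: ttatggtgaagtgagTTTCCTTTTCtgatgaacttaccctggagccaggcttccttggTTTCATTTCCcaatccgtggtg
Cxcl2 upstream 5 kb: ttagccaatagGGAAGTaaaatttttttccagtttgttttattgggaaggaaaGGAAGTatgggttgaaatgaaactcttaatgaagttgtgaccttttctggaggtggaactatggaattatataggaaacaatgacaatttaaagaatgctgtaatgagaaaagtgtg
Cxcl16 downstream 13 kb: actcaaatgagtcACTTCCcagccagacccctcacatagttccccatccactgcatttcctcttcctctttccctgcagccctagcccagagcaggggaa
Cxcl16 downstream 12 kb: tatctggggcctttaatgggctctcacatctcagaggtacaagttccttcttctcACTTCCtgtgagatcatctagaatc

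In the peak 6 kb upstream of Ccl5 the last of 3 ETS matches runs straight into a CEBP match, with 7 bp between their centres, yet no CEBPA peak of either line overlapped that PU.1 peak. The final stretch (chr5:92368493-92368592) is the counterpart from PU.1- cells, a PU.1 peak 20 kb upstream of Cxcl10 that was listed only in PU.1- and overlapped CEBPA peaks of both lines. It carries a CEBP and an IRF match and no ETS match, though the shorter AGGAA can be read on the other strand.
Cxcl10 upstream 20 kb: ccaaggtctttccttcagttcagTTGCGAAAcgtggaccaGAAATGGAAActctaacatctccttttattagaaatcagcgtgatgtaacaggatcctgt

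Between the lines the 2 factors differed in opposite directions at these genes. PU.1 peaks numbered 5 in PU.1- against 17 in PU.1+, whereas CEBPA peaks numbered 22 against 14. Among the former 17, 14 were absent from the list of the PU.1- line, a share of 82.4% (exact Clopper-Pearson 95% interval 56.6 to 96.2, which like all intervals here covers counting error only), beside 81.1% over all PU.1 peaks of PU.1+. In the PU.1- line 2 of the 5 PU.1 peaks were listed in that line alone, or 40% (5.27 to 85.3), beside 43.8% of all. Of the 22 CEBPA peaks of PU.1-, 9 overlapped no CEBPA peak of PU.1+, or 40.9% (20.7 to 63.6), beside 30.7% over all CEBPA peaks of PU.1-. Only 1 of the 14 CEBPA peaks of PU.1+ was listed in that line alone, or 7.14% (0.181 to 33.9), beside 12.1% of all. The shares at the chemokine genes were therefore not distinguishable from those of the whole lists at these numbers, in either factor.

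Peaks per length of DNA were then counted. In the 344 kb around the 10 genes there were 4.94 PU.1 peaks of PU.1+ per 100 kb, beside 0.847 in the windows of all protein-coding genes, a ratio of 5.83. The ratio was 4.81 for PU.1 in PU.1- (5 peaks), 4.4 for CEBPA in PU.1- and 3.56 for CEBPA in PU.1+. Pooled over the 10 genes, the density was thus above that of all genes for both factors and in both lines. The spread was uneven. Of the 14 CEBPA peaks of PU.1+, 7 lay in the Ccl9 and Ccl6 stretch and 4 in that of Ccl3 and Ccl4. In PU.1- these stretches held 8 and 6 of the 22 CEBPA peaks. The Ccl2 and Ccl7 stretch held no peak, and the Ccl5 and Cxcl16 stretches held no CEBPA peak of PU.1+. The higher density was not particular to the chemokine genes. There were 6 PU.1 peaks of PU.1+ per 100 kb at 6 of their receptor genes, and 1.53 at 26 other chemokine genes. Median GC content was 45.5% in the PU.1 peaks of PU.1+ both at these genes and over the whole list.

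**Figure D1:**
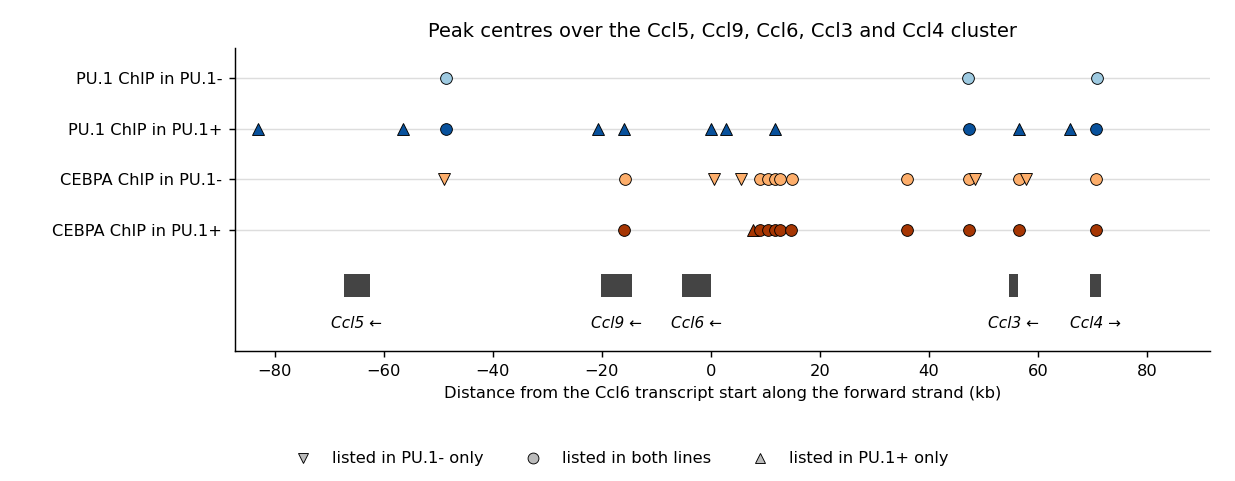
Peak centres of 4 libraries over the Ccl5 to Ccl4 cluster, by distance in kb from the Ccl6 transcript start along the forward strand; each symbol is 1 peak, its shape gives the lines in which it was listed, dark boxes are genes and arrows show their direction. CEBPA peaks crowd between 0 and 15 kb to the right of the Ccl6 start in both lines, and 9 of the 12 PU.1 peaks of PU.1+ drawn here are upward triangles, listed only in that line.

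Ccl9 and Ccl6, neighbouring CC chemokine genes of rodents whose products act through Ccr1, showed the difference in PU.1 most plainly. No PU.1 peak was listed within 20 kb of Ccl9 (chr11:83572919-83578636, reverse strand) or Ccl6 (chr11:83587882-83593087, reverse strand) in PU.1-. In PU.1+ there were 4 at Ccl9 and 5 at Ccl6, all of them listed only in that line, and 4 of these peaks lie in both windows. At least 4 such peaks were found at 3.28% of all protein-coding genes, and at 0.653% of the 5054 genes no longer than the longest chemokine gene here (6002 bp, called short genes below). At least 5 were found at 1.76% and 0.257%. These cut-offs are the counts of Ccl9 and Ccl6, which are themselves among the genes counted, so the shares give their rank only. Since a longer gene has a wider window, the second share of each pair is the closer comparison in window width. Any listed peak was found at 46.6% of short genes and 65.4% of all genes. Whether short genes differ from the others in more than window width was not tested.

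The 5 peaks ran from downstream of Ccl9 to upstream of Ccl6. They were centred 6179 bp and 1455 bp downstream of the Ccl9 start, the latter in a Ccl9 intron, then 13 bp, 2842 bp and 11761 bp upstream of the Ccl6 start. The peak 13 bp from the start (chr11:83592901-83593300) overlaps most of the Ccl6 promoter printed above. It had ETS matches 32 bp to the right and 62 bp to the left of its centre on the forward strand, the former being the one in the printed promoter. A CEBPA peak centred 550 bp upstream of the Ccl6 start was listed in PU.1- only, 537 bp from the centre of this PU.1 peak, and did not overlap it. Near the Ccl6 start the listed factor was thus CEBPA in PU.1- and PU.1 in PU.1+, in neighbouring intervals and not in the same one.

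Ccl6 also had the largest number of CEBPA peaks of the 10 genes in both lines, 8 in PU.1- and 7 in PU.1+. At least 8 CEBPA peaks in PU.1- were found at 2% of all protein-coding genes, and at 3 of the 5054 short genes (0.0594%). At least 7 in PU.1+ were found at 1.73% and 0.0989%. Both cut-offs are the counts of Ccl6, which is itself among these genes, so the shares give its rank only. All but 1 of the Ccl6 CEBPA peaks in each line lay upstream, within introns of E230016K23Rik, a gene annotated as a processed transcript. In PU.1- the 7 upstream peaks spanned 14363 bp from the first centre to the last, with a median gap of 1877 bp, and in PU.1+ the 6 upstream peaks spanned 7047 bp with a median gap of 1387 bp.

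The lines differed at the gene-proximal end of this array. The CEBPA peaks centred 550 and 5560 bp upstream of the Ccl6 start were listed in PU.1- only, whereas 5 peaks from 9107 to 14913 bp upstream had a counterpart in PU.1+. The single CEBPA peak listed only in PU.1+ at any of the 10 genes also lay here, 7704 bp upstream (chr11:83600592-83600991), with a CEBP match 14 bp from its centre. Within the array, the PU.1 peak 11761 bp upstream lay on a CEBPA peak listed in both lines, its centre 10 bp from that of the PU.1- CEBPA peak and 15 bp from that of the PU.1+ CEBPA peak. This is the stretch in which ETS and CEBP matches lie 13 bp apart.

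Ccl9 had fewer CEBPA peaks, with 2 in the PU.1- line against 1 in the PU.1+ line. The one listed in both lines lay in the Ccl9 intron, at 83577090-83577489 of chromosome 11 in PU.1-, and its CEBP match was 3 bp from its centre. A PU.1 peak listed only in PU.1+ overlapped it by 292 bp, with the centres 108 bp apart. This PU.1 peak held no GGAAGT within its 400 bp, but the shorter AGGAA lay within its central 200 bp.

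Ccl3 and Ccl4, the inflammatory proteins that attract monocytes and T cells and lie head to head, had PU.1 peaks in PU.1- as well. At Ccl3 (chr11:83647844-83649355, reverse strand) PU.1 peaks numbered 2 in PU.1- against 4 in PU.1+, and CEBPA peaks 6 against 4. At Ccl4 (chr11:83662584-83664683, forward strand) PU.1 peaks numbered 1 against 3, and CEBPA peaks 3 against 2, with 9 peaks of the 4 libraries lying in both windows. The direction was that of Ccl6 and Ccl9 in each factor, here with PU.1 peaks already listed in PU.1-.

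The 2 positions with a peak in all 4 libraries both belong to this pair, in the Ccl4 intron 1181 bp downstream of its start and 8960 bp downstream of the Ccl3 start. At the former the PU.1 and CEBPA peaks of PU.1+ overlapped by 371 bp, at the latter by 351 bp. The Ccl3 site is nearest, among coding starts, to that of Rpl9-ps1, which is named as a ribosomal protein pseudogene but annotated as coding, and not to Ccl3. In the Ccl4 intron the ETS match of the printed stretch was 9 bp from the centre of the PU.1 peak of PU.1+ and the CEBP match 30 bp from the centre of the CEBPA peak of PU.1-.

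At the Ccl3 promoter a PU.1 peak of PU.1+ lay on CEBPA peaks of both lines. CEBPA peaks centred 183 bp (PU.1-) and 166 bp (PU.1+) upstream of the start were listed in both lines, and a PU.1 peak centred 279 bp upstream was listed only in PU.1+, overlapping them by 304 and 287 bp. Neither CEBPA peak held a CEBP match, and the ETS match lay 50 bp from the centre of the PU.1 peak. A CEBPA peak 1586 bp upstream of Ccl3 and one 7864 bp downstream were listed in PU.1- only. Between the genes, a PU.1 peak 3564 bp upstream of Ccl4 was listed only in PU.1+, away from CEBPA, and is the one whose central bases hold PU.1-IRF and IRF sequences.

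Ccl5, which attracts T cells and monocytes through Ccr1 and Ccr3 among others, had 1 PU.1 peak in PU.1- against 3 in PU.1+, and 1 CEBPA peak against none. One PU.1 peak, upstream of Ccl5 (chr11:83525778-83530518, reverse strand), was listed in both lines, and the CEBPA peak of PU.1- overlapped it by 84 bp in PU.1+, at its edge. PU.1 peaks listed only in PU.1+ lay 6103 bp upstream and 20390 bp downstream of the start, the latter nearest to the start of Heatr9. The CEBPA peak nearest to that 6103-bp site in PU.1- was 7571 bp away.

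**Figure D2:**
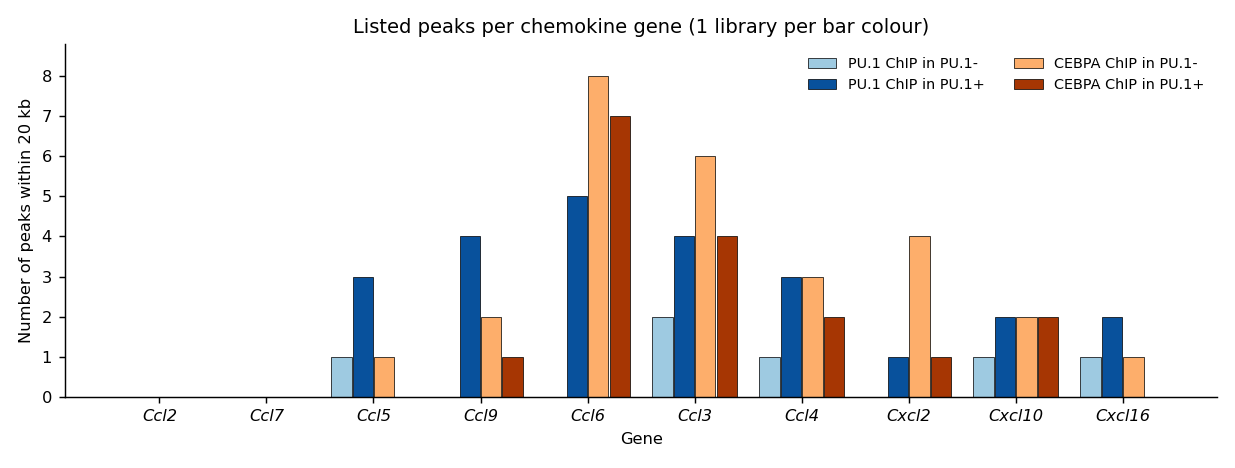
Number of listed peaks within 20 kb of each of the 10 chemokine genes, with 1 bar for each library; peaks in the windows of both genes of a neighbouring pair are counted for each. PU.1 bars are taller in PU.1+ than in PU.1- at 8 genes, the tallest bars are the CEBPA bars of Ccl6 with 8 and 7 peaks, and Ccl2 and Ccl7 have none.

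Among the CXC genes, Cxcl2, a neutrophil attractant that acts through Cxcr2, showed the largest difference in CEBPA peaks, 4 in PU.1- against 1 in PU.1+. It had no PU.1 peak in PU.1- and 1 in PU.1+. That peak lay 5050 bp upstream of the start (Cxcl2, chr5:90903871-90905938, forward strand), between a CEBPA peak listed in both lines 6231 bp upstream in PU.1- and one listed in PU.1- only 3408 bp upstream. Its centre was 1181 bp from the former and 1642 bp from the latter and it overlapped neither. Its ETS matches lay 74 and 116 bp to the left of its centre, outside the central 80 bp. The other CEBPA peaks listed only in PU.1- were 18764 bp upstream, nearest to the Cxcl1 start, and 5278 bp downstream.

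Cxcl10, an interferon-induced attractant of T cells through Cxcr3, was the only gene with peaks with the same number of CEBPA peaks, 2, in each line. PU.1 peaks numbered 1 in PU.1- against 2 in PU.1+, of which none was shared. The site 19663 bp upstream of Cxcl10 (chr5:92346638-92348889, reverse strand) had a PU.1 peak in PU.1- only and CEBPA peaks in both lines, with the PU.1 and CEBPA centres of PU.1- 16 bp apart. The converse was found 16050 bp downstream of the start, where a PU.1 peak listed only in PU.1+ lay on CEBPA peaks of both lines. Both sites are in introns of Art3, whose gene overlaps the Cxcl10 region, and a further PU.1 peak listed only in PU.1+ lay 21706 bp downstream of the start in an intron of Cxcl9. No listed peak lay nearer than these to Cxcl10.

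Cxcl16, a membrane-bound chemokine that is the ligand of Cxcr6, had 1 PU.1 peak in PU.1- against 2 in PU.1+, and likewise 1 CEBPA peak against none. The PU.1 and CEBPA peaks of PU.1- overlapped by 69 bp at the start of the neighbouring gene Med11, and neither was listed in PU.1+. The PU.1 peaks of PU.1+ lay 12378 and 13104 bp downstream of the Cxcl16 start (chr11:70453983-70459984, reverse strand) and also had Med11 as the nearest coding start. Just beyond the 20-kb limit, 20526 to 20949 bp from the gene, each of the 4 libraries had a peak, so that at Cxcl16 the count depends on where the window ends. The nearest to the limit on the inside was the Cxcl10 site above, 19663 bp from that gene in PU.1-, and on the outside the CEBPA peak 20011 bp from Ccl9 that was counted for Ccl6.

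**Figure D3:**
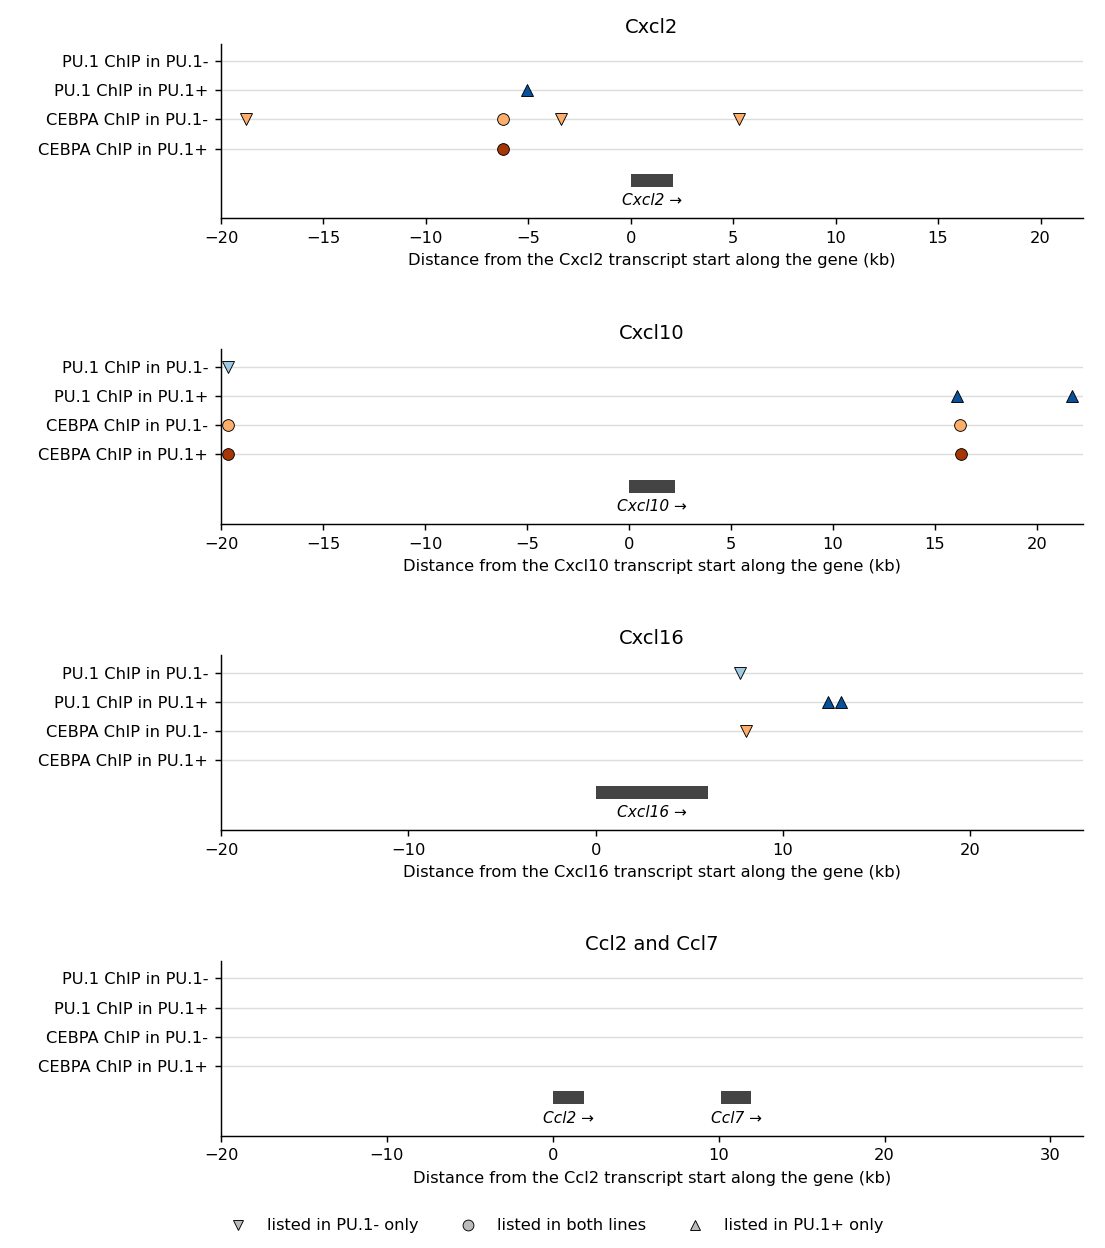
Peak centres of the 4 libraries around Cxcl2, Cxcl10, Cxcl16 and the Ccl2 and Ccl7 pair, by distance in kb from the transcript start in the direction of the gene; symbols and boxes as in the map of the Ccl5 to Ccl4 cluster. No PU.1 peak of these genes is listed in both lines, the outermost Cxcl10 sites lie close to the 20-kb limit, and the Ccl2 and Ccl7 panel is empty.

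Ccl2 and Ccl7, monocyte attractants that act through Ccr2, had no listed peak of either factor in either line. The nearest peak of any library lay 707 kb from Ccl2 (chr11:82035571-82037453) and 697 kb from Ccl7 (chr11:82045712-82047525), both times a CEBPA peak of PU.1-. Of the 21853 protein-coding genes, 4.36% were at least as far from a listed peak as Ccl2. The interval without a listed peak ran over 1767 kb (chr11:80976629-82744041) and also took in Ccl11, Ccl12, Ccl8 and Ccl1. Whether reads were mapped across this interval was not examined here.

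Set beside all protein-coding genes, the count of chemokine genes with any listed peak, 8 of 10, compares with 65.4% (46.6% of the short genes). A PU.1 peak was listed at 5 of 10 in PU.1- (all genes 23.7%, short genes 14.7%) and at 8 of 10 in PU.1+ (41.4% and 25.4%). A CEBPA peak was listed at 8 of 10 in PU.1- (56.4% and 38.4%) and at 6 of 10 in PU.1+ (51.2% and 34.1%). A PU.1 peak listed only in PU.1+ was found at 8 of 10, beside 36.7% and 21.9% (4 of 10, beside 24.6% of all genes, with windows of 5 kb), and at least 2 such peaks at 7 of 10, beside 15.3% and 6.63%.

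Genes that share windows are counted as separate genes here, although the 10 genes make only 7 stretches of DNA. A CEBPA peak listed only in PU.1- was found at 7 of 10 genes (30% of all, 18.1% of short genes), and at 7 of 10 it stood beside a PU.1 peak listed only in PU.1+ (16.7% and 7.58%). PU.1 peaks in both lines were found at Ccl5, Ccl3 and Ccl4 (13.4% of all and 7.1% of short genes), and PU.1 peaks of PU.1- alone at Cxcl10 and Cxcl16 (13.7% and 9.08%). CEBPA was listed only in PU.1+ at Ccl6 alone (11.4% and 6.77%), and CEBPA in both lines at 6 genes (48.3% and 31.8%). More PU.1 peaks together with fewer CEBPA peaks in PU.1+ were counted at 7 of the 10 genes, beside 12% of all protein-coding genes.

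**Figure D4:**
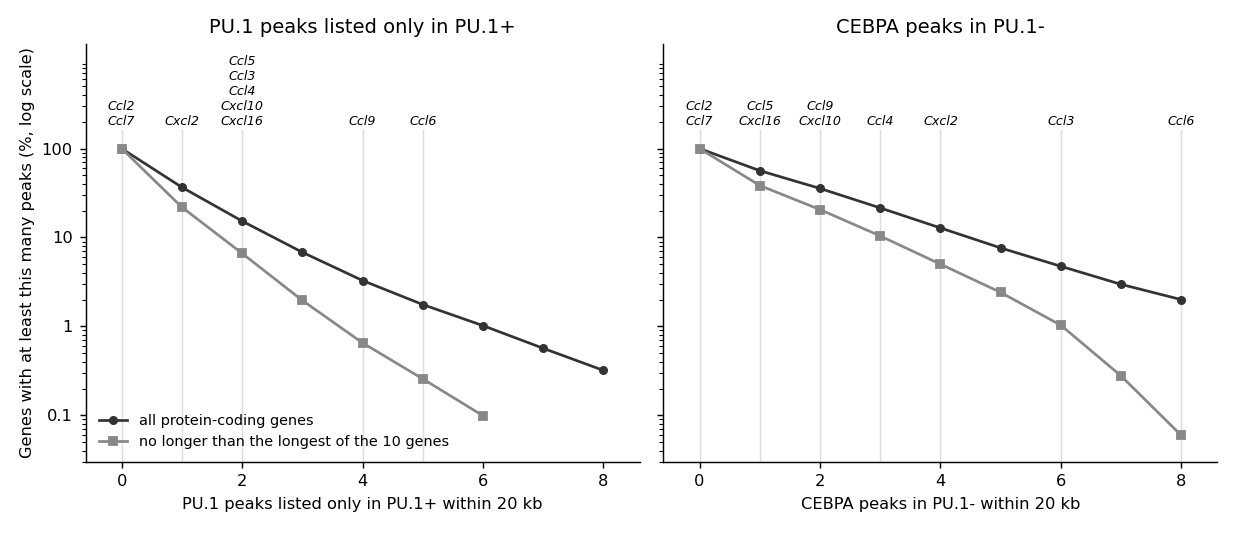
Percentage of genes (log scale) with at least the given number of PU.1 peaks listed only in PU.1+ (left) or of CEBPA peaks in PU.1- (right) within 20 kb, for all 21853 protein-coding genes and for the 5054 genes no longer than the longest of the 10 chemokine genes. Names above the curves stand at each chemokine gene's own number, from 0 for Ccl2 and Ccl7 to 5 PU.1 peaks and 8 CEBPA peaks for Ccl6.

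Merged over the 4 libraries, the 58 peaks made 33 sites. PU.1 was listed at 19 of them and CEBPA at 23, with both at 9. PU.1 in PU.1+ and nothing else was the pattern at 10 sites (30.3%, beside 23.6% of the 40138 sites of the whole lists). CEBPA in PU.1- alone was found at 7 (21.2%, beside 18.1%) and CEBPA in both lines without PU.1 at 6 (18.2%, beside 33.6%). PU.1 peaks listed only in PU.1+ (new PU.1 peaks below) on CEBPA of both lines made up 4 sites (12.1%, beside 5.1%), in the Ccl9 intron, 12 kb upstream of Ccl6, at the Ccl3 promoter and in Art3 near Cxcl10. The single CEBPA peak listed only in PU.1+ overlapped no PU.1 peak.

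CEBPA overlapped 4 of the 14 PU.1 peaks listed only in PU.1+, or 28.6% (8.39 to 58.1), beside 25.4% of all such peaks. The genes within 20 kb of these 4 peaks were Ccl9, Ccl6, Ccl3, Ccl4 and Cxcl10, or 5 of 10, beside 12.6% of all protein-coding genes and 6.27% of the short ones. Conversely, 6 of the 13 CEBPA peaks of PU.1- that were also listed in PU.1+ coincided with PU.1 in PU.1+ (at least 1 bp), or 46.2% (19.2 to 74.9), beside 20% over the whole list, a value just inside the interval.

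Distances between the factors were measured from centre to centre. The median distance from a PU.1 peak listed only in PU.1+ to the nearest CEBPA peak of PU.1- was 3318 bp over the 14 peaks, beside 7684 bp over all 12714, and 11 of 14 were within 5000 bp (42.9% of all). Over the 10 of these that overlapped no CEBPA peak the median was 4582 bp, beside 12078 bp over all 9482 such peaks. Seen from CEBPA, the 9 peaks listed only in PU.1- lay a median of 4343 bp from the nearest new PU.1 peak (29259 bp over all), and the 13 listed in both lines a median of 1200 bp (18865 bp over all). Peaks of one cluster share their neighbours. The density pooled over these genes was above that of all genes in all 4 libraries. The distances therefore repeat in part what the density already shows.

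Peak positions relative to starts were not distinguishable from those of the whole lists. Centres within 1000 bp of a protein-coding transcript start made up 4 of 17 PU.1 peaks of PU.1+ (23.5%, interval 6.81 to 49.9, beside 9.78% of all) and 1 of 5 in PU.1- (20%, beside 24.5% of all), and 4 of 22 and 2 of 14 CEBPA peaks in PU.1- and PU.1+ (14.6% and 15.2% of all). The 4 starts were those of Ccl6, Ccl3, Cxcl9 and Art3. Over the 4 libraries, 38 of the 58 peaks had a chemokine gene of the 10 as the nearest coding start, 16 of them Ccl6. For the other 20 the nearest start was that of Rpl9-ps1, Art3, Med11, Cxcl1, Cxcl9 or Heatr9.

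ETS letters were about as frequent under these PU.1 peaks as elsewhere. In 8 of the 17 PU.1 peaks of PU.1+ the central 80 bp held GGAAGT, or 47.1% (23 to 72.2), beside 43.5% over all PU.1 peaks of PU.1+ and 4.44% in windows of the same length 2000 bp to either side of them. All 3 PU.1 peaks listed in both lines had it there in PU.1+ (interval 29.2 to 100, all such peaks 46.1%), and 5 of the 14 listed only in PU.1+ (35.7%, all such peaks 42.9%). Over the whole 400 bp, 10 of these 14 had a match (71.4%, interval 41.9 to 91.6), beside 63.5% of all. The longer GAGGAAGT occurred in the central 80 bp of 1 of 17, the Ccl4 intron, beside 15.2% over all. The shorter AGGAA lay in the central 80 bp of 10 of 17 (58.8%, interval 32.9 to 81.6). Its share was 70.8% over all and 26.3% in the windows to either side. Within the whole 400 bp all 17 held AGGAA, beside 95.3% over all.

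CEBP letters were read in the same way. TTGCNNAA lay in the central 80 bp of 4 of 22 CEBPA peaks of PU.1- (18.2%, interval 5.19 to 40.3), beside 35.6% over all, and of 6 of 14 in PU.1+ (42.9%, beside 38.2%). The lower share in PU.1- was not found in the central 200 bp, where 11 of 22 had a match (50%, beside 46.2%). Over the whole 400 bp, 9 of the 13 CEBPA peaks of PU.1- that were also listed in PU.1+ had a match (69.2%, 38.6 to 90.9, all such peaks 54.8%), and 3 of the 9 listed in PU.1- alone (33.3%, 7.49 to 70.1, all such peaks 44.6%). The intervals overlap widely, so that a difference between CEBPA peaks listed in both lines and in PU.1- alone was not detectable with so few.

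**Figure D5:**
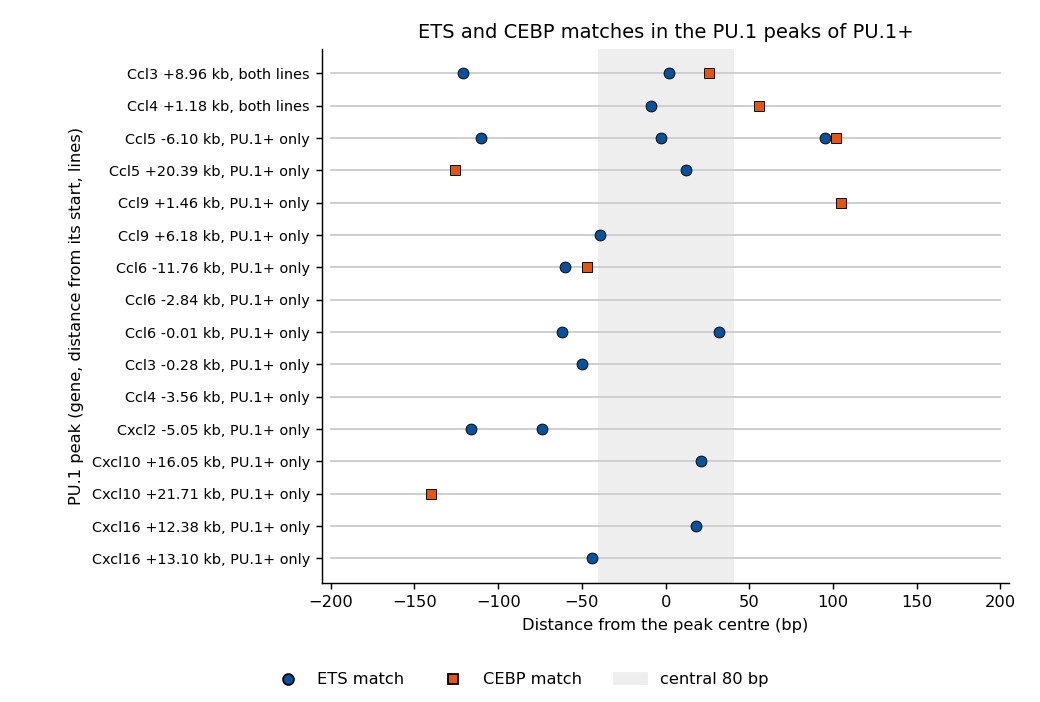
Positions of ETS (circles) and CEBP (squares) matches in bp from the centre of 16 of the 17 PU.1 peaks of PU.1+ at the chemokine genes (a peak upstream of Ccl5, listed in both lines, is not drawn), with the central 80 bp shaded; labels give the nearest gene, the distance from its start and the lines in which the PU.1 peak was listed. The 2 drawn peaks listed in both lines are at the top. Each has an ETS match within 10 bp of the centre and a CEBP match farther out. Of the 14 below, 4 have no GGAAGT in their 400 bp, though all hold the shorter AGGAA, which is not drawn.

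RefSeq promoters, 250 bases before to 50 after a start, could be matched for 5 of the 10 genes (Ccl9, Ccl6, Ccl3, Cxcl2 and Cxcl10). ETS matches were found once in each except Cxcl2, beside 25.2% of 20143 promoters that hold at least one. Listed peaks overlapped only the promoters of Ccl6 (PU.1 in PU.1+) and Ccl3 (PU.1 in PU.1+ and CEBPA in both lines). Matches to the NF-kB sequence (GGGA, any 2 bases, TTCC), which 1.43% of promoters hold, were found at Cxcl2 and at Cxcl10, and Cxcl10 also held the IRF sequence (in 3.42% of promoters), but no listed peak overlapped either promoter.

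Other chemokine genes were counted in the same way. Of 26 further chemokine genes, 14 (53.8%) had a PU.1 peak listed only in PU.1+ within 20 kb, beside 36.7% of all protein-coding genes, namely Ccl17, Ccl24, Ccl25, Ccl26, Cxcl1, Cxcl3, Cxcl5, Pf4, Ppbp, Cxcl9, Cxcl11, Cxcl12, Cxcl15 and Cxcl17. A CEBPA peak was listed at 9 of the 26 in PU.1- and at 8 in PU.1+, beside 8 and 6 of the 10 genes above. The PU.1 peak of Cxcl1 is the one upstream of Cxcl2, and the new PU.1 peaks of Cxcl9 are those of Cxcl10, so the lists are not independent. Cxcl11 shares with Cxcl10 only the upstream site listed for PU.1 in PU.1- and for CEBPA in both lines, and its new PU.1 peaks are others. Neighbours among the 26 genes also share peaks, so the 14 genes are not separate loci. The windows of the 26 held 17 different PU.1 peaks of PU.1+.

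Of the genes for receptors through which these chemokines act, Ccr1, Ccr2, Ccr3, Cxcr2, Cxcr3 and Cxcr6 were examined, and all 6 had a PU.1 peak listed only in PU.1+, beside 36.7% of all protein-coding genes. PU.1 peaks ranged from 0 to 2 per gene in PU.1- and from 1 to 4 in PU.1+, whereas CEBPA peaks ranged from 1 to 6 and from 0 to 4. Ccr2, the receptor of the chemokines without a listed peak, had 1 PU.1 peak in PU.1- against 4 in PU.1+, with 3 CEBPA peaks in each line.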

How the data were processed

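ChIP-seq was performed with antibodies to PU.1 and CEBPA in EV (PU.1-) and PuER (PU.1+) clones. Per the labels, Bowtie2 2.0.6 aligned the reads (mm10) and the authors called peaks with MACS2 2.0.10. The deposited lists hold chromosome, start and end only, in base pairs, with every interval 400 bp wide and with no score, count or signal; the calling threshold is not given in the sources used here. Of the 8 samples, the 4 H3K27Ac and IgG samples were not used here.

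Genes were taken from GENCODE vM21 and bases from GRCm38. Peaks of one antibody that overlapped by at least 1 bp were treated as shared. Sequence letters were matched exactly on both strands in the central 80 bp. Shares carry exact Clopper-Pearson intervals (95%), computed with Python 3.11.15, numpy 2.4.6 and scipy 1.17.1; no test between lines was possible with 1 library each. Alternatives were windows of 5, 10 and 50 kb, assignment by nearest start, overlap of 50% or centres within 100 bp, and 200 bp or the whole peak for sequence letters. A receptor gene and the bases of a peak upstream of Ccl5 are not reported here. The procedures were tested on simulated peaks. The genes named were the 10 chemokine genes, further chemokine genes with a new PU.1 peak, 6 receptors, and neighbours holding the nearest start. The genes and lists were chosen with earlier results of these data known.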

Additional observations from a re-analysis of the deposited data

Results flagged for a closer look

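The number of PU.1 peaks was higher and that of CEBPA peaks lower in PU.1+ than in PU.1- at 7 of the 10 genes. These were Ccl5, Ccl9, Ccl6, Ccl3, Ccl4, Cxcl2 and Cxcl16, and the share over all protein-coding genes was 12%. The factors thus differed in opposite directions under the same comparison. The CEBPA differences were of 1 peak at 5 of the 7 genes, 6 against 4 peaks at Ccl3 and 4 against 1 at Cxcl2. Neighbours share peaks, so the 7 genes are not separate loci. The CEBPA peak listed only in PU.1- at Ccl9 was also counted at Ccl6, and that at Ccl4 also at Ccl3. The whole lists differed in the same directions, and the difference between the factors was not tested, since there was 1 library for each antibody and line.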

How the results depend on the processing

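No paired analysis was possible because there was 1 library for each antibody and line. Of 62 alternative values, 34 stayed within 1.5 times of the value given above and 28 did not, mostly where the window changed. With 5, 10 and 50 kb around the genes, PU.1 peaks of PU.1- numbered 2, 3 and 9 in place of 5, and 2 by nearest start. At 5 kb there were 7 PU.1 peaks of PU.1+, 6 of them listed only there, at 4 genes in place of 8 (24.6% of all genes at 5 kb), and by nearest start 11, 9 of them listed only there. CEBPA peaks numbered 8 and 13 in PU.1- and 3 and 7 in PU.1+ at 5 and 10 kb, and 24 in PU.1+ at 50 kb. CEBPA peaks listed in both lines numbered 3, 6 and 20 at 5, 10 and 50 kb, and those listed only in PU.1- 5 at 5 kb. CEBPA peaks listed only in PU.1+ numbered 0 at 5 kb, 4 at 50 kb and 2 where sharing needed centres within 100 bp. Within 200 bp and within the whole peak, ETS letters were found in 13 and 13 PU.1 peaks of PU.1+, and CEBP letters in 11 and 12 CEBPA peaks of PU.1- and in 10 and 10 of PU.1+. With AGGAA as the ETS letters, 1 PU.1 peak of PU.1- held them in place of 2. PU.1 peaks outnumbered in PU.1+ those of PU.1-, and CEBPA peaks in PU.1- those of PU.1+, at each window tried. Depth per library is unknown, so differences in the number of called peaks between lines cannot be told apart from differences in depth or enrichment.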
